A study of Mus musculus with 9 samples.

Results

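The genes described here are 36 genes of skeletal muscle measured in dissected mouse aortae. They were chosen by name as genes of fast fibres (14 genes), of slow fibres (5 genes) or of both fibre types (17 genes), and each was read at the brightest of the probe sets that match that gene alone. All 36 had such a probe set, out of 18193 genes measured on the array, and together they had 58 of its 34945 single-gene probe sets. Levels are deposited log2 values, so a difference of 1 is a doubling.

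Skeletal muscle fibres contract when calcium, released from the sarcoplasmic reticulum, binds troponin on the thin filament and lets myosin heads pull on actin. Fast and slow fibres use different genes for the same parts, with their own myosin heavy chains, troponin subunits, calcium pumps and binding proteins. The wall of the aorta holds smooth muscle, which has its own actin and myosin genes, whereas skeletal muscle lies next to the vessel along the spine and diaphragm. Several slow fibre genes are also used by the heart, where the aorta begins.

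The series compared male mice labelled BMAL+/+ with mice labelled BMAL-/-, a label for loss of the clock transcription factor BMAL1, both partially backcrossed onto C57Bl/6J. Every animal was acclimated for at least 2 weeks to a cycle of 12 hours of light and 12 of darkness, then kept without light for 30 hours or more and taken at ZT14, counted in hours from lights on. The labels call the tissue aorta or thoracic aorta, while the dissection they describe runs from the arch past the femoral branching, and no label says how much surrounding tissue was trimmed. The sources used here give neither ages nor whether each array is 1 animal, and a test measures only the spread between these samples. The 9 arrays are F01, F04, F07, F09 and F10 for BMAL+/+ and F02, F03, F05 and F08 for BMAL-/-, and values below follow those orders.

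Some labels and arrays disagree. Arntl, which encodes BMAL1, read 2.76, 6.67, 2.79, 2.82 and 2.74 on the arrays labelled BMAL+/+ and 5.87, 6.22, 2.77 and 6.05 on those labelled BMAL-/-. The targeted gene was therefore higher on 3 of the 4 arrays labelled BMAL-/- and below the array median on 4 of the 5 labelled BMAL+/+, which is opposite to a loss of its transcript. No source used here says whether its probe set lies in the deleted part. Arntl therefore does not check the labels, and BMAL+/+ and BMAL-/- name the arrays as labelled throughout. Npas2, a partner of BMAL1, read 3.37, 8.36, 3.40, 3.37 and 3.38 and then 8.08, 7.90, 3.40 and 8.52, and the clock repressor Nr1d2 11.69, 5.81, 11.27, 10.39 and 11.09 and then 5.08, 5.89, 11.21 and 5.48. At all 3 genes F04 stood with the arrays labelled BMAL-/- and F05 with those labelled BMAL+/+, so each genotype result is given for the 9 arrays and for the 7 without F04 and F05. The source name of F01 says BMAL-/- while its title and strain say BMAL+/+, and it was kept as BMAL+/+. The array medians lay between 3.13 and 3.24, Pearson's r between arrays over all probe sets lay between 0.949 and 0.994, and the 12 smooth muscle markers averaged 10.22 to 11.56 on every array. Because the tissue was measured whole, fewer cells of a type and less RNA per cell cannot be told apart.

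The myosin heavy chains set the speed of a fibre, with Myh2, Myh1 and Myh4 encoding the chains of fast fibres of types IIa, IIx and IIb. They are neighbours on mouse chromosome 11, in the order Myh3, Myh2, Myh1, Myh4, Myh8 and Myh13. The promoters of these 3 genes and of Acta1, the actin of the skeletal muscle thin filament, are shown because the results turn on these 4 genes. Sequences are from RefSeq on GRCm38.p6, 250 bases before to 50 after the annotated start, on the strand of the gene, at chr8:123894726-123895025 (minus strand) for Acta1, chr11:67170777-67171076 (plus) for Myh2, chr11:67199852-67200151 (plus) for Myh1 and chr11:67237562-67237861 (plus) for Myh4. Capitals mark matches to the letters TATAAA, to the CArG box or to the MEF2 site.
Acta1: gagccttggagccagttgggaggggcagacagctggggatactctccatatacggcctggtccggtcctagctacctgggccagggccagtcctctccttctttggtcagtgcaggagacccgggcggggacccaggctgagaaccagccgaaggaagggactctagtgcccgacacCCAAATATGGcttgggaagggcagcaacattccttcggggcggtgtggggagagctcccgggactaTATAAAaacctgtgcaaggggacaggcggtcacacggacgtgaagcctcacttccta
Myh2: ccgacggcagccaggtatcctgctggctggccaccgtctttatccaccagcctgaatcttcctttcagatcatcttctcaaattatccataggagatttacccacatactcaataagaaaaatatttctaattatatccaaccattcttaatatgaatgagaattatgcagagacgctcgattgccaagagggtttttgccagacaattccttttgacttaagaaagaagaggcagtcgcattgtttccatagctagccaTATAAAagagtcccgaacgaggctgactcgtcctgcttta
Myh1: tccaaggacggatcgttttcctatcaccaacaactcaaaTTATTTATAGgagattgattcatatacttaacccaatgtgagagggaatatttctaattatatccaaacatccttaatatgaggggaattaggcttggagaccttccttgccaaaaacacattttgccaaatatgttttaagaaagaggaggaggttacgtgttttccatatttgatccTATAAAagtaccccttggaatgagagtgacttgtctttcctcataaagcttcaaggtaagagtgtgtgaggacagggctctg
Myh4: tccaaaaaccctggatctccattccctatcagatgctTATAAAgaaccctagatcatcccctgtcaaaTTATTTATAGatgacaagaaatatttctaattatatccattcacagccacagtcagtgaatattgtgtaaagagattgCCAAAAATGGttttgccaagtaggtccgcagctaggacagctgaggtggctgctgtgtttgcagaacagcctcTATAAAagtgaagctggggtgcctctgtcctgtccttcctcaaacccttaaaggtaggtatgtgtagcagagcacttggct

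A CArG box, the motif named for serum response factor, was matched 73 to 64 bases before the start of Acta1 and 104 to 95 bases before that of Myh4. A MEF2 site, named for the myocyte enhancer factors, was matched 211 to 202 bases before the start of Myh1 and 182 to 173 bases before that of Myh4. Both of these MEF2 matches also contain TATAAA on the opposite strand. In Myh1 and Myh4 another TATAAA lay 32 to 27 and 31 to 26 bases before the start, while in Myh2 it lay 11 to 16 bases past the annotated start. Of the 36 genes, 26 matched a RefSeq promoter, with 31 windows of 300 bases. Counting both strands, a CArG box was in 6.45% of these windows against 1.63% of all 32851 windows, a MEF2 site in 16.1% against 3.19%, TATAAA in 19.4% against 13.6%, and CAGCTG, a form of the E-box, in 48.4% against 16.3%. These matches describe the letters in the windows and say nothing of binding.

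Skeletal muscle genes were among the most variable transcripts of the whole array. The range of a gene is its highest minus its lowest array. Its median was 6.09 over the 36 genes and 0.66 over all genes, or 1.08 over genes brighter than the median gene. Myh4, with 9.84, and Tnnc2, the calcium-binding troponin C of fast fibres, with 9.36, had the 2 largest ranges of all 18193 genes. Their order is not resolved, since Myh4 read 2.39 on F01, below that array's median of 3.13, and its second probe set had a range of 3.28. Of the 30 genes with the largest ranges 14 were of this group, as were 23 of the first 100 and 33 of the first 500. A range above 4 was found for 27 of the 36 genes and for 1.21% of all genes. The smallest ranges were those of Casq1, the calcium store protein of fast fibres (2.06), and Jph1, which ties the reticulum to the surface membrane (1.78).

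**Figure D1:**
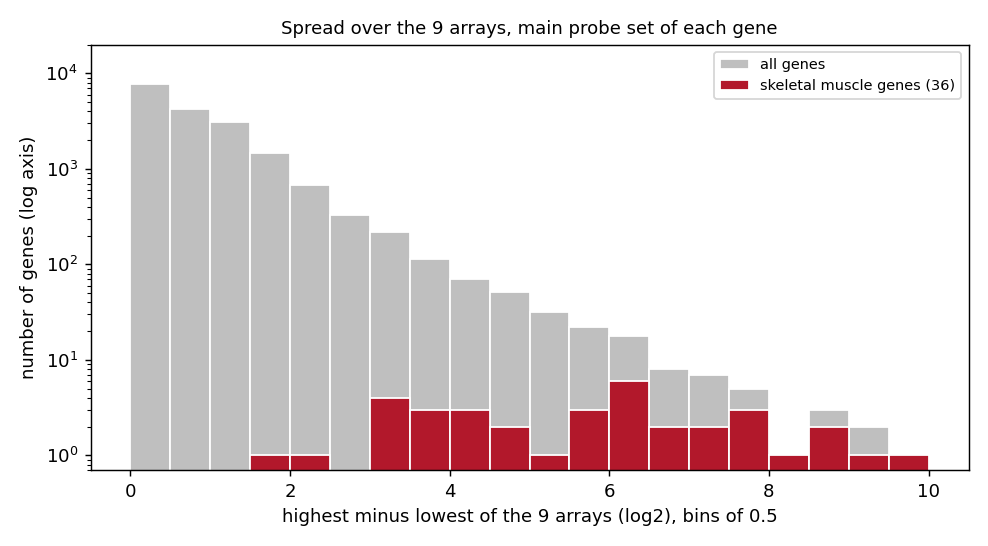
Histogram of the range (highest minus lowest of 9 arrays, log2, bins of 0.5) for the main probe set of all genes (grey) and of the 36 skeletal muscle genes (red, drawn over the grey), with the number of genes on a log axis. The red bars begin at a range of 1.78, and 27 of the 36 genes lie above 4.

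Arrays of the same genotype differed widely. F01 was the lowest of the 9 arrays for 24 of the 36 genes, beside 28.5% of all genes, and lay below the gene's own median for 35. F04 was lowest for 6, F02 for 3, F05 for 2 and F03 for 1, beside 4.40%, 8.60%, 4.58% and 7.46% of all genes. F08 was highest for 20 genes, F02 for 8, F07 for 7 and F10 for 1. Of all genes, 4.64% were highest on F08, 26.6% on F02, 4.07% on F07 and 6.18% on F10. F07 lay above the gene's own median for all 36, and F07 and F08 were both among the 3 highest arrays for 29. F01, F04 and F05 were the 3 lowest arrays for 24 genes, and these 3 carry both genotype labels. On F01, 10 of the 36 genes were below the array median, where values carry little order. As a median over the 36 genes, the distance from each gene's own median was -3.27, -1.62, 1.35, 0.00 and 0.75 on the BMAL+/+ arrays and 0.07, -0.21, -1.66 and 1.45 on the BMAL-/- arrays. Over the same arrays the 12 smooth muscle markers moved between -0.79 and 0.42.

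**Figure D2:**
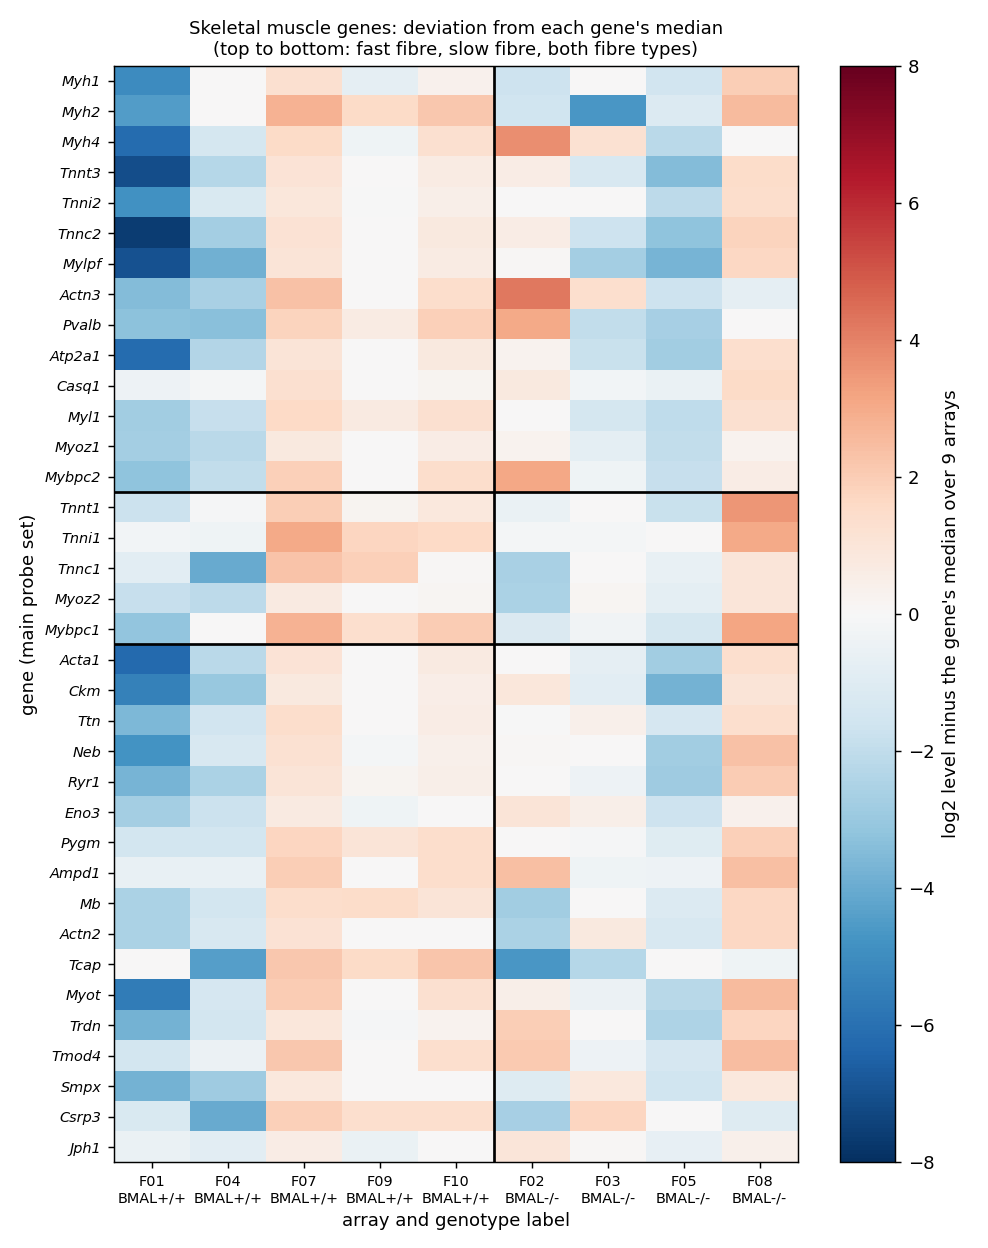
Each row is a skeletal muscle gene and each column an array, coloured by the log2 level minus that gene's median over the 9 arrays (red above, blue below); black lines separate fast, slow and shared genes and the 2 genotypes. F01, F04 and F05 are mostly blue, and F07 and F08 mostly red. On F02 the fast genes Myh4, Actn3, Mybpc2 and Pvalb are red, Myh1 and Myh2 are blue and the others are pale. The slow genes on F02 are pale to blue.

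Of the fast myosins, Myh4 read 2.39, 7.13, 10.10, 8.21 and 9.82 in BMAL+/+ and 12.23, 9.77, 6.40 and 8.54 in BMAL-/-. Myh2 read 4.66, 9.15, 11.91, 10.66 and 11.32 in BMAL+/+ and 7.54, 4.47, 8.06 and 11.70 in BMAL-/-. Myh1 read 7.00, 12.06, 13.34, 11.29 and 12.38 in BMAL+/+ and 10.38, 12.03, 10.53 and 13.99 in BMAL-/-. The genotypes overlapped for all 3 genes, F01 was the lowest array for Myh4 and Myh1, and F03 was the lowest for Myh2. On F02 and F03 the main probe sets of these neighbours parted. Myh4 deviated from its own median by 3.69 on F02 and 1.23 on F03, Myh2 by -1.61 and -4.67, and Myh1 by -1.65 and 0.00. The deviation of Myh4 minus that of Myh2 was 5.30 on F02 and 5.90 on F03, and lay between -2.55 and -0.89 on the other 7 arrays. The second probe set of Myh4 did not peak on these arrays, at 4.83 on F02 and 4.42 on F03 against 6.50 on F10. Myh8, the perinatal myosin gene next to Myh4, read 8.74 on F03 and 3.25 to 3.65 on the others, and Myh3, the embryonic chain, was below the array median on all 9. These are descriptions of single arrays, with no test.

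**Figure D3:**
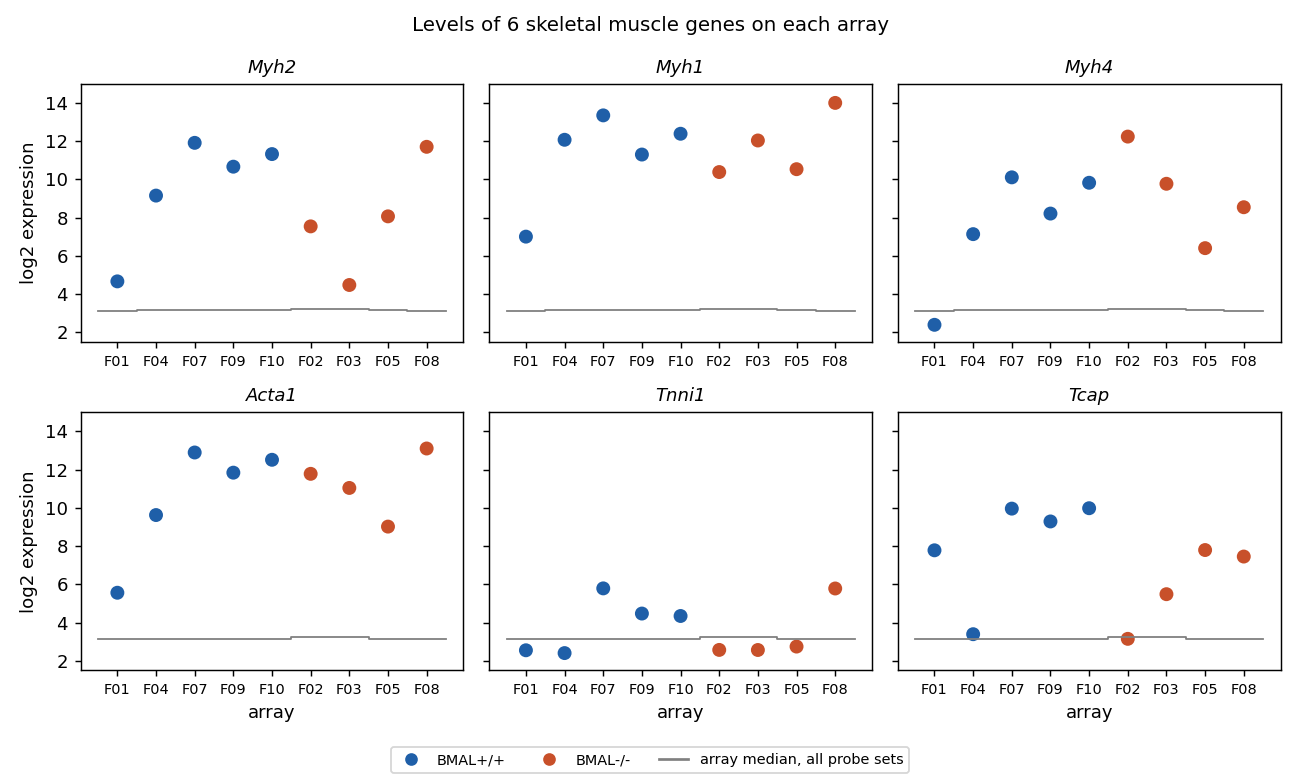
Log2 level of Myh2, Myh1, Myh4, Acta1, Tnni1 and Tcap on each array (blue BMAL+/+, orange BMAL-/-), with the median of all probe sets of each array as a grey line. Myh4 is highest on F02 while Myh2 is lowest on F03, and no gene separates the genotypes over the 9 arrays.

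The troponin subunits, which pass the calcium signal to the thin filament, and the light chain shared their highest and lowest arrays. Tnnc2 read 3.65, 8.55, 12.43, 11.26 and 12.04 in BMAL+/+ and 11.84, 9.62, 8.06 and 13.01 in BMAL-/-. Tnnt3, the fast subunit that binds tropomyosin, read 3.23 on F01, 6.91 on F05 and 8.08 on F04, and between 9.07 and 11.85 on the other arrays. Mylpf, the regulatory light chain of fast myosin, read 2.80, 5.98, 10.80, 9.79 and 10.44 in BMAL+/+ and 9.91, 7.06, 6.09 and 11.42 in BMAL-/-. For each of these 3 genes F08 was the highest array and F01 the lowest, and F04 and F05 were the next lowest. Tnni2, the inhibitory subunit, ran from 4.73 on F01 to 10.97 on F08, and a second probe set of it ran from 2.68 to 12.07 with the same lowest and highest arrays.

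Actn3, Pvalb and Mybpc2 were highest on F02, as Myh4 was. F02 was the highest array for 4 of the 14 fast genes, beside 26.6% of all genes. Actn3, the fast Z-disc actinin, read 3.03, 3.91, 8.82, 6.47 and 7.88 in BMAL+/+ and 10.69, 7.85, 4.83 and 5.73 in BMAL-/-. Pvalb, the parvalbumin that speeds relaxation by binding calcium, read 2.50, 2.45, 7.55, 6.46 and 7.67 in BMAL+/+ and 8.84, 3.82, 3.13 and 5.79 in BMAL-/-. Mybpc2, the fast myosin binding protein C, read 3.39, 4.69, 8.56, 6.63 and 8.01 in BMAL+/+ and 9.74, 6.29, 4.81 and 7.21 in BMAL-/-. On F08, where most muscle genes peaked, Actn3 was 0.74 below its own median and Pvalb was at its own. The calcium pump Atp2a1 (3.19 to 10.69), the essential light chain Myl1 (7.26 to 11.62) and the Z-disc protein Myoz1 (3.79 to 7.28) kept F01 as the lowest array, and Casq1 (6.69 to 8.75) had F05.

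Slow fibre genes mostly had another lowest array. Tnnt1, the slow troponin T, read 4.43, 6.05, 8.10, 6.37 and 7.00 in BMAL+/+ and 5.62, 6.15, 4.38 and 9.68 in BMAL-/-. Mybpc1, the slow myosin binding protein C, read 3.22, 6.34, 9.14, 7.66 and 8.39 in BMAL+/+ and 5.18, 6.06, 4.92 and 9.52 in BMAL-/-. Tnni1, the slow inhibitory troponin, read 2.55, 2.41, 5.79, 4.47 and 4.35 in BMAL+/+ and 2.57, 2.57, 2.75 and 5.78 in BMAL-/-. Tnni1 was below the array median on 5 of 9 arrays, so its lower values carry no order. Tnnc1, the troponin C of slow fibres and heart, read 5.75, 2.54, 8.88, 8.48 and 6.69 in BMAL+/+ and 4.0, 6.58, 5.97 and 7.56 in BMAL-/-. Myoz2, a Z-disc protein of slow fibres and heart, ran from 5.54 on F02 to 9.08 on F08. F01 was lowest for 1 of the 5 slow genes, Mybpc1, and for 11 of the 14 fast genes, beside 28.5% of all genes. It was among the 3 lowest arrays for all 5 slow genes and all 14 fast genes. For Tnnt1 F01 read 4.43, close to the lowest value of 4.38 on F05.

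Fast and slow genes were set against each other on each array through the median deviation of each list. For fast genes it was -4.66, -2.03, 1.29, 0.00 and 0.77 in BMAL+/+ and 0.44, -1.03, -2.07 and 1.37 in BMAL-/-. For slow genes it was -1.72, -0.34, 2.29, 1.32 and 0.85 in BMAL+/+ and -1.16, 0.00, -0.80 and 3.04 in BMAL-/-. Fast minus slow was therefore -2.94, -1.69, -1.01, -1.32 and -0.08 in BMAL+/+ (SD 1.05, n = 5) and 1.59, -1.03, -1.28 and -1.67 in BMAL-/- (SD 1.48, n = 4). F02 was the only array above 0 with these settings, and F01 the farthest below it. The lists differ in span, with a median range of 7.21 for fast genes and 5.30 for slow genes. The difference thus also depends on span, and 0 is no neutral point, since 8 arrays lay below it. The part of span in these values was not tested. On F02, 11 of the 14 fast genes lay above their own median and 0 of the 5 slow genes did. Fast minus slow did not follow the genotype labels, since F03, F05 and F08 lay among the BMAL+/+ arrays. F02 stayed highest and F01 lowest when probe sets were averaged, arrays were quantile normalized, low values were raised to a floor, the lists were averaged, F04 and F05 were left out, Tnnc1 and Myoz2 were dropped from the slow list (0.97 and -2.94), or 7 genes that slow fibres share with heart were added (1.06 and -2.94). The arrays between them moved more. F10 was above 0 after quantile normalization (0.13), with list means (0.05) and without F04 and F05 (0.40). Without F04 and F05, which resets each gene's median, F02 was at 2.48, F08 at -0.46 and F09 at -0.28.

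**Figure D4:**
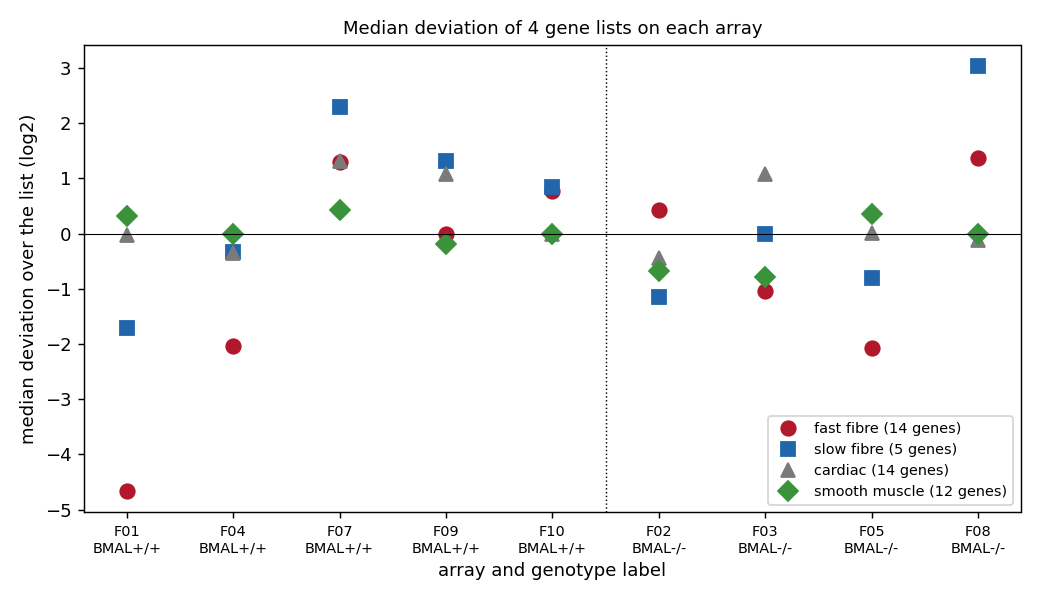
Median deviation (log2) from each gene's own median over the 9 arrays, for fast fibre (red circles), slow fibre (blue squares), cardiac (grey triangles) and smooth muscle markers (green diamonds), with a dotted line between the genotypes. Fast genes reach -4.66 on F01, slow genes reach 3.04 on F08, and F02 is the only array with fast genes above slow genes.

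Among the genes of both fibre types, some had the highest and lowest arrays of the fast troponins. Acta1 read 5.56, 9.62, 12.89, 11.84 and 12.51 in BMAL+/+ and 11.78, 11.04, 9.02 and 13.10 in BMAL-/-. Ckm, the muscle creatine kinase, read 4.25, 6.59, 10.41, 9.63 and 10.19 in BMAL+/+ and 10.53, 8.79, 5.88 and 10.65 in BMAL-/-. Neb, the ruler protein of the thin filament, read 2.92, 6.44, 8.94, 7.55 and 8.13 in BMAL+/+ and 7.81, 7.71, 4.91 and 10.05 in BMAL-/-. All 3 were highest on F08 and lowest on F01, and the genotypes overlapped. Ttn, the giant spring of the sarcomere, ran from 7.99 on F01 to 12.98 on F07, with F08 at 12.94. Ryr1, the calcium release channel (2.29 to 8.01), Trdn, which holds that channel (3.37 to 9.14), Myot, a Z-disc protein (2.82 to 10.97), and Tmod4, which caps thin filaments (2.80 to 6.74), also had F01 as the lowest array. So did the muscle enolase Eno3 (6.04 to 9.73), the AMP deaminase Ampd1 (2.30 to 5.32), Actn2, the Z-disc actinin shared with heart (4.63 to 8.82), and Smpx (4.63 to 9.27), while the glycogen phosphorylase Pygm (4.43 to 7.83) and Jph1 had F04. Eno3, Ampd1, Trdn and Jph1 were highest on F02, which are 4 of the 17 shared genes, beside 26.6% of all genes. Some further probe sets of Trdn were highest on F03 or F07.

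Some genes of this group that the heart also expresses had other arrays at the bottom. Tcap, a titin cap protein of the Z-disc, read 7.78, 3.39, 9.96, 9.29 and 9.98 in BMAL+/+ and 3.15, 5.49, 7.79 and 7.45 in BMAL-/-. Csrp3, a Z-disc LIM protein, read 5.75, 2.94, 8.87, 8.31 and 8.32 in BMAL+/+ and 4.31, 8.72, 6.98 and 5.93 in BMAL-/-. Mb, the oxygen store myoglobin, read 7.77, 8.80, 11.71, 11.79 and 11.33 in BMAL+/+ and 7.49, 10.29, 9.21 and 11.92 in BMAL-/-. F02 and F04 were the 2 lowest arrays for Tcap, Csrp3, Tnnc1 and Myoz2, while F02 and F01 were the 2 lowest for Mb. The atrial light chain Myl7 also had F02 and F04 as its 2 lowest arrays. It read 7.66, 3.15, 10.53, 10.95 and 9.45 in BMAL+/+ and 2.36, 8.42, 9.58 and 5.67 in BMAL-/-. On F08 Myl7 was low at 5.67, while Mb (11.92) and Myoz2 (9.08) were highest on that array. The 14 measured cardiac markers averaged 5.16, 4.05, 6.61, 6.81 and 5.55 in BMAL+/+ and 3.69, 6.50, 5.77 and 4.67 in BMAL-/-, lowest on F02 and F04. Nppb, Bmp10, Nkx2-5 and Gata4 were below the array median on all 9 arrays, and the part of cardiac markers in these values was not tested.

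Other genes of the muscle lists varied over the same arrays in part. Of the other slow genes shared with heart, Myl2 (3.09 on F01 to 9.41 on F08) and Myh7 (3.57 on F05 to 9.42 on F08) were highest on F08, while Myl3 was highest on F03 at 9.90, and Casq2 ran from 4.07 on F02 to 7.50 on F08. Of the other sarcomere genes with the largest ranges, Myom2 ran from 2.66 on F04 to 9.64 on F02, Lmod2 from 3.22 on F04 to 7.68 on F07 and Nrap from 2.98 on F01 to 6.99 on F08. In calcium release, the voltage sensor Cacna1s ran from 2.76 on F05 to 6.27 on F08, with Hrc (5.77 to 8.48), Srl (6.56 to 9.23) and Jph2 (5.11 to 6.16) behind it. In energy metabolism, the mitochondrial creatine kinase Ckmt2 ran from 5.42 on F01 to 11.16 on F08, Cox6a2 from 4.64 to 9.09 on the same arrays, Pgam2 from 3.64 to 7.88 on the same arrays and Cox8b, which brown fat also expresses, from 9.28 on F04 to 13.11 on F09.

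Genes of the synapse were mostly near the floor, as were some of the myogenic and satellite cell factors. Of the 10 neuromuscular junction genes, 7 were below the array median on all 9 arrays, among them Chrna1 and Chrng of the acetylcholine receptor (highest 2.47 and 2.63) and the kinase Musk (highest 2.89). Chrnb1 read 3.26 to 3.36 with a range of 0.10, and Ache, the acetylcholinesterase, read 5.55 on F09 and at most 2.71 on the others. Of the 8 measured myogenic and satellite cell factors, Myod1, Myog and Pax7 were below the array median on all 9 arrays. Myf6, the factor of mature fibres, read 4.28 on F08 and at most 2.95 elsewhere. Mef2c (8.62 to 9.55) and Mef2d (7.50 to 8.33) varied little, and Eya1 read 6.33 on F09 and 6.02 on F03 against at most 4.47 on the others.

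BMAL genotype gave no called difference in skeletal muscle genes over the 9 arrays. Differences are BMAL-/- minus BMAL+/+, and limma's moderated test with Benjamini-Hochberg adjustment over all 45037 probe sets called 0 of the 36, with 0.0% of genes called in all. At an unadjusted p under 0.05 limma gave 0 of the 36, against 7.25% of genes. The groups did not overlap for 0 of the 36, where BMAL-/- was higher without overlap for 0.561% of genes and lower for 0.165%. The difference was above 0 for 27 genes and below 0 for 9, where 12084 of all 18193 genes were above 0. It had a median of 0.55 (all genes 0.03) and a range from -2.11 (Tcap) to 1.70 (Myh4). For 33 of the 36 it was smaller than its own standard error. By list the median was 0.64 for fast, -0.44 for slow and 0.60 for shared genes.

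Without F04 and F05 the same fit again called 0 of the 36, with 0.0165% of genes and 0.00888% of probe sets called. The difference was above 0 for 26 genes and below 0 for 10, where 12389 of all 18193 genes were above 0. It had a median of 0.91 (all genes 0.04). Its medians were 1.07 for fast, -0.24 for slow and 0.95 for shared genes. Tcap alone had an unadjusted p under 0.05, where 22.3% of genes did. Its mean was 5.36 ± 2.15 (SD, n = 3) over the BMAL-/- arrays against 9.25 ± 1.03 (SD, n = 4) over the BMAL+/+ arrays. The difference was -3.89 ± 1.04 (SE), with a limma adjusted p of 0.208. Its groups did not overlap in these 7 arrays, which held for 3.13% of genes with BMAL-/- lower, and they did overlap in the 9. None of the 36 was higher in BMAL-/- without overlap, against 14.4% of genes. Tcap was called without F08 (limma adjusted p = 0.0133), where 16445 of all 45037 probe sets were called in place of 4. It was also called with array weights (limma adjusted p = 0.0208), where 15448 probe sets were called and F08 had a weight of 0.16.

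The mean of Acta1 was 11.23 ± 1.71 (SD, n = 4) over the BMAL-/- arrays against 10.49 ± 3.03 (SD, n = 5) over the BMAL+/+ arrays. The difference of 0.75 ± 1.53 (SE) had p = 0.778 when the labels were permuted exactly (two-sided), where the smallest possible p is 0.0159. In the 7 arrays it was 1.27 ± 1.81 (SE), with p = 0.857 in the same exact test, which cannot go below 0.0571. The direction was not stable. Without F01 Acta1 was lower in BMAL-/- under both groupings (-0.48, and -0.44 in the 7 arrays), and with F01 kept, limma's array weights also gave lower values (-2.21, and -0.40 in the 7 arrays). In the 9 arrays these weights rested the BMAL-/- side mainly on F05, at 5.75 against 0.29, 0.30 and 0.65 for F02, F03 and F08. In the 7 arrays F08 had a weight of 0.16. Over the 36 genes the median without F01 was -0.37, with 9 above 0 and 27 below, and -0.28 in the 7 arrays. Without F08 the 9-array median was -0.10, with 15 above 0 and 21 below. With F01 moved to the genotype of its source name, 2 of the 36 differences were above 0 and 34 below, and 0 were called.

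**Figure D5:**
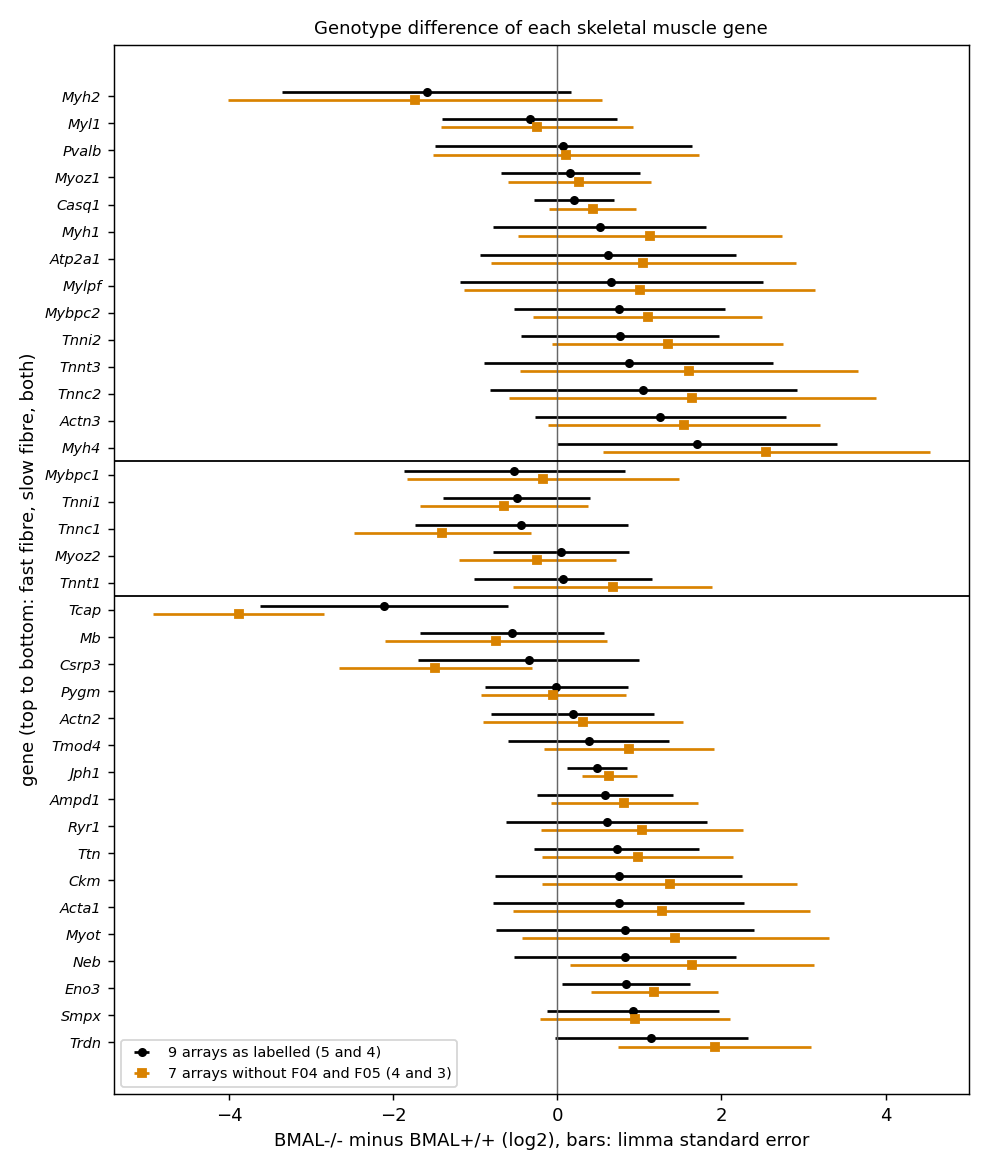
Difference BMAL-/- minus BMAL+/+ (log2) of each skeletal muscle gene with limma's standard error as bars, for the 9 arrays (black circles) and the 7 arrays without F04 and F05 (orange squares), sorted within fast, slow and shared genes. Most bars cross 0, and Tcap at -3.89 in the 7 arrays lies farthest from it.

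None of the other muscle lists held a called gene under either grouping by limma's adjusted p. In the 9 arrays 3 of the 6 measured slow genes shared with heart lay above 0, as did 12 of 19 sarcomere genes, 10 of 12 genes of calcium release, 6 of 12 of energy metabolism, 8 of 10 of the neuromuscular junction and 6 of 8 myogenic factors, where 12084 of all 18193 genes did. An unadjusted p under 0.05 was found for 0, 0, 2, 1, 2 and 1 of them, beside 7.25% of all genes. In the 7 arrays 3, 12, 9, 7, 7 and 5 of the same lists lay above 0, where 12389 of all genes did, and 0, 1, 4, 0, 1 and 3 had an unadjusted p under 0.05, beside 22.3% of all genes.

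Marker lists of other cells also held 0 called genes under both groupings. Over the 9 arrays the range of each list's mean level overlapped between genotypes. Without F04 and F05 it did not overlap for macrophage markers (7.23 to 8.46 in BMAL+/+ and 6.09 to 6.85 in BMAL-/-). Nor did it for endothelial markers (6.51 to 6.94 and 6.15 to 6.48), while the other lists still overlapped. Of all 18193 genes 6109 were below 0 in the 9 arrays and 5804 in the 7. An unadjusted p under 0.05 in limma was found for 7.25% and 22.3% of all genes. Of 12 smooth muscle markers 11 were below 0 in the 9 arrays and 11 in the 7, with 0 and 4 at that p. The list mean over the 9 arrays was 10.85 to 11.56 in BMAL+/+ and 10.22 to 11.51 in BMAL-/-, and is given in brackets for the other lists. Of 10 macrophage markers 10 and 10 were below 0, with 0 and 6 at that p (6.71 to 8.46 and 6.09 to 7.71), and of 10 fibroblast markers 8 and 8, with 1 and 6 (9.20 to 10.36 and 8.48 to 10.12). Of 10 endothelial markers 8 and 7 were below 0, with 1 and 4 (6.51 to 6.94 and 6.15 to 6.64), and of 14 cardiac markers 8 and 9, with 1 and 3 (4.05 to 6.81 and 3.69 to 6.50). Of 9 brown fat markers 3 and 3 were below 0, with 1 and 2 (8.12 to 9.22 and 8.66 to 9.02), and of 8 white fat markers 6 and 4, with 0 and 2 (11.37 to 12.28 and 11.10 to 11.92). Of 7 nerve and Schwann cell markers 5 and 4 were below 0, with 0 and 2 (6.13 to 7.96 and 5.91 to 7.31), and of 7 blood cell markers 4 and 4, with 0 and 0 (3.94 to 5.10 and 3.88 to 5.26). Their part in the muscle differences was not tested.

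Further probe sets of the same genes gave a partial check of the array pattern. Of 22 such probe sets 12 had a range above 2, and of those 9 were lowest and 6 highest on the same array as the gene's main probe set. Another 6 of the 22 were below the array median on all arrays. The second probe set of Myh4 was highest on F10 at 6.50, read 4.83 on F02, and had the opposite sign by genotype (-0.38, and -0.33 in the 7 arrays), so the F02 peak of Myh4 rests on its main probe set. A further probe set of Myh1 had values close to its main one, from 7.11 on F01 to 13.27 on F08. The main probe set of Myh1 is of a type that may also bind related transcripts, and the fast myosins are close relatives.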

How the data were processed

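Total RNA from mouse aortae was hybridised to 9 Affymetrix mouse expression arrays of 1 colour. The authors deposited log2 values per probe set, and GCRMA and MAS5 are named in the submitters' processing notes, with no role given; the values were used as deposited. Of 45101 probe sets 64 controls were left out, and 34945 match 1 gene, 932 several and 9160 none in the platform annotation. A gene's main probe set is its brightest over the 9 arrays. Genotypes were compared with limma 3.58.1 in R 4.3.3 (lmFit, eBayes with a trend, Benjamini-Hochberg over all 45037 probe sets, threshold 0.05), tested on simulated data, and Acta1 also by exact permutation. Deviations are from a gene's own median, since levels of different probe sets are not comparable. The 36 genes and all lists were chosen with earlier results of these data known. All members are named; of other lists the 4 genes with the largest range, and non-members among the 30 largest ranges. Myh8, Myh3 and some genes near the floor were singled out after their values were seen. Alternatives covered normalization, centring, moderation, array weights, dim and shared probe sets, a floor, F01's group and leaving out each array. The number of arrays limits the precision. No paired analysis was possible because the groups share no replicate numbers.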

Additional observations from a re-analysis of the deposited data

Results flagged for a closer look

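Tnni1, the slow inhibitory troponin, read 5.78 on F08, and the other 3 BMAL-/- arrays read 2.57, 2.57 and 2.75, so F08 stood far from its group. This was the only flag among 82 groups checked for a sample far from the others, where chance flags about 1 in 20. In BMAL+/+ the gene also reached 5.79, on F07.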

How the results depend on the processing

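Over the 9 arrays limma called 0 probe sets and 0 of the 36 genes under every alternative run. The cause of the changes below was not tested. With array weights the median difference was -1.93, with Acta1 at -2.21, Myh4 at -1.96 and Trdn at -1.90, and 0 of the 36 above 0. These weights were 5.75 for F05 and 0.29, 0.30 and 0.65 for F02, F03 and F08. With F01 moved to BMAL-/- Acta1 was -1.62 (exact permutation p = 0.349), Myh4 -0.95 and Trdn -0.42. Leaving out each array gave Acta1 -0.48 to 1.49 in the 9 arrays and -0.44 to 2.00 in the 7, reversed only without F01 (exact permutation p = 0.629 and 0.6), and a median of -0.37 to 1.06 and -0.28 to 1.44. In the 7 arrays the probe sets called were 2 after quantile normalization, 15448 with array weights and 2 to 16445 on leaving out each array, against 4. With array weights 1 of the 36 genes was called, Tcap at -4.88 (limma adjusted p = 0.0208), beside 15448 of all 45037 probe sets. Acta1 was -0.40 there, and F08 had a weight of 0.16, against 0.75 for F02 and 1.10 for F03. On leaving out each array 0 to 1 were called, Tcap at -4.93 without F08, beside 16445 of all 45037 probe sets. Tcap's limma adjusted p ran from 0.0133 to 0.527 over its alternatives. Fast minus slow on F04 was -0.52 when lists were averaged, and the spread kept 19 to 23 of the 36 genes among the 100 largest ranges and F01 lowest for 24 to 30. Arrays stand alone in these descriptions, and values below the array median carry little order.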

Other observations

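Among the 30 genes with the largest ranges, 16 were outside the 36 genes. Some had F10 and F02 as their 2 highest arrays. Glycam1, a ligand of lymph node vessels, read 10.15 and 12.06 there, 6.74 on F07 and at most 3.20 on the others. Ms4a4b, a T cell gene, read 9.37 and 9.95 on F10 and F02, Iglv1, an immunoglobulin light chain, 7.63 and 9.78, Jchain, which joins immunoglobulins, 9.79 and 10.41, and the chemokine Cxcl13 10.30 and 9.24. Cd209b was highest on F10 at 10.09, with 6.75 on F02.

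Genes of nerve and heart had other arrays on top. Npy, a transmitter of sympathetic nerves, read 11.74 on F09 and 4.07 on F04, and the synaptic gene Snap25 read 9.50 on F09 and 2.73 on F04. Fabp7 was highest on F03 at 9.53. Tnnt2, the cardiac troponin T, read 12.06 on F03 and 4.79 on F02, and Sln, an atrial regulator of the calcium pump, 10.33 on F07 and 3.06 on F02. Svs4, a seminal vesicle secretion gene, read 9.09 on F01, 6.37 on F10 and at most 2.57 on the others. Nr1d2, a clock repressor, read 11.69 on F01 and 5.08 on F02, and Ang read 1.85 on F10 and 5.89 to 8.33 elsewhere. On F01, where skeletal muscle genes were lowest, none of these genes but Svs4 and Nr1d2 was highest.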
